A study of Caenorhabditis elegans with 2 samples.

Results

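The genes described here encode PIE-1 and the maternal RNA-binding proteins that carry cell polarity of the early Caenorhabditis elegans embryo into cell fate. They are pie-1, mex-1, mex-3, mex-5, mex-6, pos-1, oma-1, oma-2 and spn-4. They were chosen by symbol, with earlier results of these data known, and all 9 were found among 19973 protein-coding genes of the nuclear chromosomes. The assay was chromatin immunoprecipitation with sequencing (ChIP-seq) of MEP-1 tagged with eGFP, in 1 group with 2 biological replicates of whole embryos of mixed stage and mixed sex. Both replicates came from strain OP70, which carries unc-119(ed3) and the insertion wgIs70 with tagged mep-1. The labels do not state the promoter or copy number of the insertion. No other genotype, treatment or time is present, so nothing below compares conditions, and no test was run on the member counts. In whole embryos, binding in few cells and weaker binding in many cells cannot be told apart.

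In the zygote these proteins divide the work of asymmetry. MEX-5 and MEX-6, CCCH zinc-finger proteins, act in the anterior cytoplasm downstream of the PAR kinases, while PIE-1, POS-1 and MEX-1, also of the CCCH class, are inherited by the germline blastomeres. PIE-1 blocks transcription by RNA polymerase II in those blastomeres and is known to bind MEP-1, which with the Mi-2 remodeller LET-418 keeps germline genes off in somatic cells. OMA-1 and OMA-2 act redundantly in oocyte maturation, MEX-3 is a KH-domain repressor of maternal mRNAs, and SPN-4 has an RNA recognition motif. Their mRNAs are supplied by the mother, so the genes themselves are known for germline rather than embryonic transcription.

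Of the 9 genes, 2 had a MEP-1 peak of the thresholded set from 2000 bp upstream of the annotated 5′ end to the 3′ end. This set, made with the irreproducible discovery rate (IDR) procedure, is called the IDR set, and it holds the 2404 strongest regions of the pooled reads. The genes with a peak were mex-1 and spn-4, and the remaining 7, pie-1 among them, had none. The same window held an IDR summit in 16.1% of all protein-coding genes, so 2 of 9 is too small a count to set the members apart. Both peaks also lay in the narrower promoter window, from 1000 bp upstream to 200 bp downstream, where 11.4% of all genes had a summit. Neither summit had the member as its nearest 5′ end. Among all 3442 pairs of an IDR summit and a gene window that holds it, the gene had the nearest 5′ end in 47.2%.

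The mex-1 and spn-4 peaks are the sequences on which this result rests, and 300 bases around each summit are shown with the pooled candidate upstream of pie-1, which was not in the IDR set, for contrast. The first is chrII:11967579-11967878, the second chrV:6785155-6785454 and the third chrIII:12426261-12426560. All are printed on the plus strand of ce11, from the RefSeq genome of the same build. Capitals mark GCGCG or its reverse complement CGCGC.
mex-1 peak: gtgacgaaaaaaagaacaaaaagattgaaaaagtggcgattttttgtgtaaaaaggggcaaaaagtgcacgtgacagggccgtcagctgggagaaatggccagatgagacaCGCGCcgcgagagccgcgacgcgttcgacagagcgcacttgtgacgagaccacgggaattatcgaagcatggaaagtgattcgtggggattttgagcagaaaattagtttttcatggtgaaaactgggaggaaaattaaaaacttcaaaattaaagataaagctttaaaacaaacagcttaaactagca
spn-4 peak: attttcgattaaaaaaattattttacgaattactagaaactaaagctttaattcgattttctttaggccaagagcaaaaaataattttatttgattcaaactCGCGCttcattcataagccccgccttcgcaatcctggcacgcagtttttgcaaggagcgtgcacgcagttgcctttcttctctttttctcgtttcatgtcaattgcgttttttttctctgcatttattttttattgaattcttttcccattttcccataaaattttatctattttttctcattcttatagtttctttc
pie-1 candidate: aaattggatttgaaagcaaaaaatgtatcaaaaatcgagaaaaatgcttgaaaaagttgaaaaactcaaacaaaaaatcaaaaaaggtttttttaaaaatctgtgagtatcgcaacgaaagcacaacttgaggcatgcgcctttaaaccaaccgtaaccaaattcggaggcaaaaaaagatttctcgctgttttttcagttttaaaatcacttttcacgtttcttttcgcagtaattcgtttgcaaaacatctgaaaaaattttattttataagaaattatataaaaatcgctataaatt

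Both peaks held 1 match to GCGCG on either strand, centred 37 bp from the summit at mex-1 and 46 bp at spn-4, and the pie-1 candidate held none. The same length around the IDR summits past the 3′ ends of pie-1, oma-1 and oma-2, described below, held none either. Among windows of this length around all IDR summits, 47.2% held the motif, against 17.1% around the 27596 pooled candidates outside the IDR set. The G and C content was 43% at mex-1, 32% at spn-4 and 28.3% at the pie-1 candidate, and its median was 40.3% over IDR summits and 36.7% over the other candidates. The spn-4 window is thus poorer in G and C than the median candidate outside the IDR set. A further 3 motifs were searched on both strands. Of these, GAGAG occurred once in the mex-1 window and not in the other printed windows, against 64.6% of IDR windows and 42.4% of the other candidates. The motif TTTGAA occurred once in each of the printed windows, against 49.5% and 60.7%. The motif TGATAA occurred in none of them, against 14.6% and 21.2%. Around the IDR summits past the 3′ ends, GAGAG occurred once at pie-1, once at oma-1 and not at oma-2. There TTTGAA occurred at all of these genes and TGATAA at pie-1 alone. No matches to different motifs overlapped in these windows. A match is a match of letters and is not evidence of a site.

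The gene mex-1 (WBGene00003228, chromosome II from 11968637 to 11972330, plus strand), needed to confine germline factors to the germline blastomeres, had the strongest peak of the group. The peak spans 11967561 to 11967896, and its summit lies between genes at -908 bp from the 5′ end of mex-1, negative values being upstream. In the authors' signal value, a strength given to each region and comparable only within a list, it had 89.4 in the pooled list, 17.7 in replicate 1 and 70.1 in replicate 2. The corresponding ranks were 336 of 30000, 510 of 25216 and 366 of 30000. It therefore stood in the upper 2.02% of each list, and the summits of the replicates lay within 38 bp of the pooled one. The nearest 5′ end was that of W03C9.5, at 185 bp, and the promoter window of rab-7, which encodes a small GTPase of late endosomes, held the summit as well, at -798 bp. W03C9.5 and rab-7 lie in tandem on the minus strand, head to head with mex-1 across a gap of 1092 bp. The other regions of the mex-1 window were weak. The pooled list had a summit in coding sequence at +1611 bp (signal value 9.88) and one in an intron at +2553 bp (7.90), each with a replicate 2 summit within 7 bp. By outermost 5′ ends the summit at +2553 bp was nearest to acbp-6, but a further mex-1 5′ end at +1739 bp lies closer. The remaining pooled summit lay in rab-7 at -1787 bp (7.18), and replicate 1 had an intronic summit of its own at +2870 bp (5.23).

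The gene spn-4 (WBGene00004984, chromosome V from 6783187 to 6784903, minus strand), whose protein acts in spindle orientation and in translation of maternal mRNAs, had the other peak. It spans 6785137 to 6785472, and its summit lies between genes at -402 bp from the 5′ end of spn-4. Its signal value was 66.3 in the pooled list (rank 742), 13.4 in replicate 1 (rank 943) and 50.2 in replicate 2 (rank 871). The replicate summits lay 10 and 5 bp from the pooled summit, so the position repeats more closely than at mex-1. Here too a neighbour on the other strand was nearer: spe-39, which encodes a vesicle-trafficking protein needed in spermatogenesis, starts 146 bp away, and the gap between the divergent genes is 547 bp. Farther upstream, inside spe-39, the pooled list had a summit at -1655 bp (signal value 9.26) and replicate 1 one at -1802 bp (5.12, nearest to ZC404.2), 147 bp apart.

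Both member peaks therefore had a summit within 100 bp in the list of each replicate. The IDR set was made from these same replicates, so such a match is not an independent recovery. Over the whole IDR set the share with a match was 84.5% for replicate 1 and 98.5% for replicate 2. Both were stronger than the median of the IDR set, 52.4, and well below its strongest peak, 357.3, nearest to cdc-48.1, which encodes an AAA ATPase. By signal value alone, the peaks ranked directly above and below mex-1 were nearest to sco-1, a gene for assembly of cytochrome c oxidase (89.5), and to tex-2 (89.4). Those beside spn-4 were nearest to C03B8.3 (66.4) and to lpin-1, which encodes lipin (66.3). This likeness is of a single value in 1 list and says nothing of function.

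**Figure D1:**
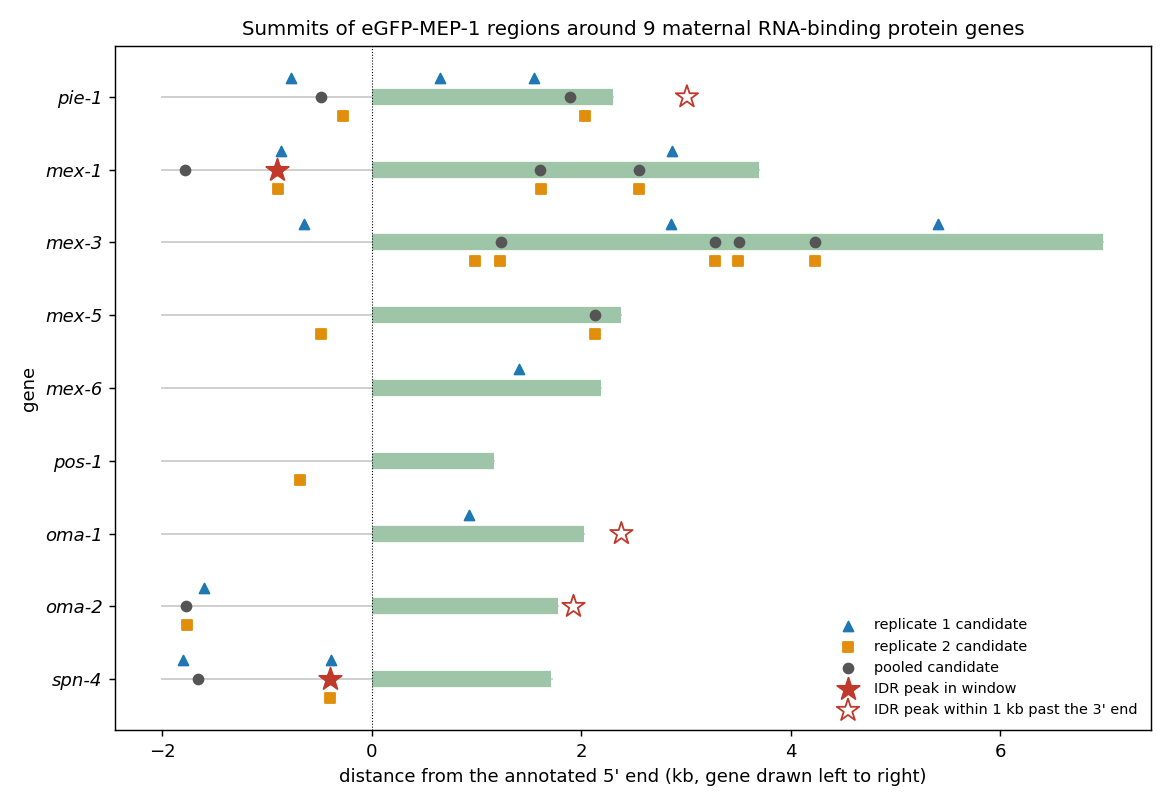
Summits around the 9 genes, with distance from the annotated 5′ end in kb on the horizontal axis, each gene drawn left to right as a green bar and its 2000 bp upstream as a grey line. Filled stars are IDR peaks, which are pooled candidates too, and open stars are IDR peaks within 1000 bp past a 3′ end; replicate 1 candidates sit above and replicate 2 candidates below each gene, and they coincide with the filled stars at mex-1 and spn-4.

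Around pie-1 itself (WBGene00004027, chromosome III from 12426893 to 12429195, plus strand) no region passed the threshold, and the replicates did not place their weak candidates together. Upstream of the gene, replicate 1 had a summit at -768 bp, replicate 2 at -278 bp and the pooled list at -482 bp. These 3 summits lie 204 bp or more from each other. The replicate 1 region was in the upper 12.1% of its list (signal value 7.22, rank 3041), the replicate 2 region in the upper 42.3% (9.62, rank 12676) and the pooled region in the upper 65.8% (8.80, rank 19728). The −log10 of the authors' q-value was 2.51, 0.37 and 0.15 for these regions. Every peak of the IDR set has 3.70 in the pooled list. In replicate 1 alone, the q-value of the pie-1 region was close to those of the regions at the mex-1 peak (2.53) and the spn-4 peak (2.43), although its signal value was lower, 7.22 against 17.7 and 13.4. The highest value in the replicate 1 list was 2.69, and spn-4 at rank 943 stood below pie-1 at rank 3041. Close values of this measure therefore do not mean like strength. Within the gene, replicate 1 had summits in introns at +653 and +1547 bp, and replicate 2 had one in coding sequence at +2037 bp. The pooled list had a coding summit at +1893 bp with a signal value of 6.94, rank 27815. No summit of replicate 1 in the pie-1 window had one of replicate 2 within 100 bp.

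The nearest IDR peak to pie-1 has its summit past the 3′ end of the gene, and the same holds for oma-1 and oma-2. That next to pie-1 spans 12429734 to 12430069 on chromosome III. Its summit lies 707 bp past the 3′ end and 273 bp from the 5′ end of snr-6. That gene encodes the spliceosomal protein SmE and overlaps the tail of pie-1 on the opposite strand. The pooled signal value of the peak was 90.0 (rank 331), with rank 121 in replicate 1 and 512 in replicate 2. That next to oma-1 spans 8891191 to 8891526 on chromosome IV. Its summit lies 360 bp past the 3′ end and 103 bp from the 5′ end of spr-2, which encodes a protein related to the human histone chaperone SET. Its signal value was 57.6, and it ranked 1103 in replicate 1 and 1003 in replicate 2. That next to oma-2 spans 8031197 to 8031532 on chromosome V, and its edge overlaps the end of oma-2. Its summit lies 151 bp past the 3′ end and 46 bp from the 5′ end of vars-1, the valyl-tRNA synthetase gene. Its signal value was 54.6, and its ranks differed widely, 6341 in replicate 1 and 998 in replicate 2, so it was not among the 2404 strongest of replicate 1. An IDR summit within 1000 bp past the 3′ end, a window chosen after the values were seen, was thus present at 3 of the 9 genes and at 3.25% of all protein-coding genes. In each case the nearest 5′ end is that of the following gene.

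**Figure D2:**
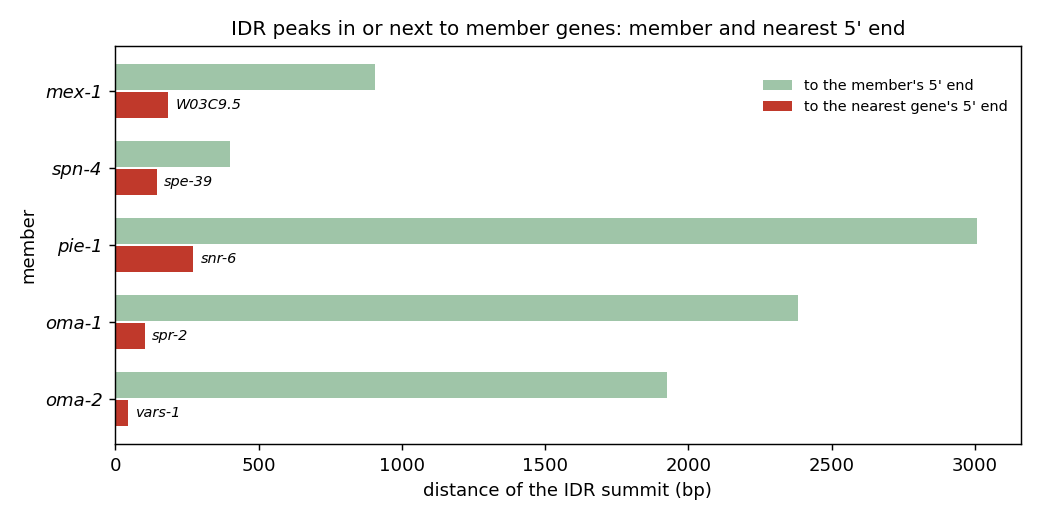
Distance in bp of each IDR summit in or within 1000 bp past a member gene, to the member's own 5′ end (green) and to the nearest annotated 5′ end (red, gene named). At all 5 members the red bar is the shorter, from 46 bp at oma-2 to 273 bp at pie-1, and the longest green bar, at pie-1, reaches 3009 bp.

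The paralogues oma-1 and oma-2 had little in their own windows. At oma-1 (WBGene00003864, chromosome IV from 8888976 to 8890999, plus strand) the window held no pooled and no replicate 2 candidate, and replicate 1 had a coding summit at +929 bp with a signal value of 2.14, rank 23563. At oma-2 (WBGene00003865, chromosome V from 8029439 to 8031214, plus strand) all candidates lay far upstream, inside F43H9.4. The pooled one, at -1777 bp, had a signal value of 13.5 and rank 9347, the strongest below the threshold in any member window. The replicate 2 summit was 15 bp from it, with 10.8 and rank 10341, and the replicate 1 summit 179 bp from it, with 2.84 and rank 16825. The pair was thus alike in having its nearest IDR peak at the next gene downstream.

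The paralogues mex-5 and mex-6 lay far from any IDR peak. At mex-5 (WBGene00003230, chromosome IV from 13353723 to 13356104, plus strand) the nearest IDR summit was 32578 bp away. Its pooled candidate lay in the 3′ UTR at +2131 bp with a signal value of 11.5, rank 12403, and replicate 2 had a summit 3 bp from it with 9.15, rank 13919. Replicate 2 had a further summit at -482 bp, 48 bp from the 5′ end of rec-8, the meiotic cohesin gene on the other strand (signal value 7.74, rank 18350). Replicate 1 had no candidate in the mex-5 window. At mex-6 (WBGene00003231, chromosome II from 9524174 to 9526359, plus strand) the nearest IDR summit was at -33095 bp, and replicate 1 alone had a candidate, a coding summit at +1401 bp with a signal value of 5.20, rank 5891.

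At pos-1 (WBGene00004078, chromosome V from 8414086 to 8415254, plus strand), which encodes a regulator of maternal glp-1 mRNA, the nearest IDR summit was the most distant of the group, at -54758 bp. Replicate 2 alone had a candidate there, at -687 bp and 83 bp from the 5′ end of vha-18, a vacuolar ATPase subunit gene, with a signal value of 6.21 and rank 25208. At mex-3 (WBGene00003229, chromosome I from 127285 to 134270, plus strand), whose protein represses pal-1 mRNA, the nearest IDR summit was at -16530 bp. The gene is the longest member, 6986 bp, and its 4 pooled candidates all lay in introns, from +1230 to +4234 bp. The strongest of them, at +3280 bp, had a signal value of 13.2 and rank 9692. Each had a replicate 2 summit within 6 bp and none had a replicate 1 summit within 100 bp. The gene has 5 annotated 5′ ends, the farthest downstream at +4977 bp, so all 4 lay upstream of at least 1 of them. Counting only the outermost 5′ end of each gene, the candidate at +4234 bp was nearest to F53G12.4, 2818 bp away. The mex-3 5′ end at +4977 bp lies closer to this candidate. Replicate 1 had summits at -651, +2856 and +5407 bp, with signal values of 2.21, 3.06 and 2.39 in its own list, where they ranked at 90.4%, 60.2% and 83% from the top. The nearest IDR summit was a median of 3.01 kb from the 5′ end over the 9 members, against 14.2 kb over all protein-coding genes.

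Candidate regions of the longer lists, which also hold the IDR peaks, were about as frequent in these windows as elsewhere. A pooled candidate was present at 6 of 9 members and at 59.2% of all protein-coding genes. A replicate 1 candidate was present at 7 members and at 62.1% of genes, and a replicate 2 candidate at 7 members and at 60.2%. Per kb, the member windows, 42.2 kb in all, held 0.33 pooled summits and the genome held 0.30. Without the IDR peaks these densities were 0.28 and 0.28. By outermost 5′ ends, the member was the nearest gene at 6 of the 14 pooled summits, 6 of 13 in replicate 1 and 8 of 15 in replicate 2. These counts may be low for the members, since further 5′ ends inside pie-1, mex-1 and mex-3 lie closer to some summits than the neighbour's outermost 5′ end. Further 5′ ends of the neighbours were not searched for these candidates. Of the 14 pooled summits in member windows, 12 were outside the IDR set, with signal values from 6.94 to 13.5 and a median of 9.32, against 9.88 for all such candidates. The next strongest region after the peaks at 89.4 and 66.3 was thus at 13.5. Of these 12, none had a replicate 1 summit within 100 bp and 8 had a replicate 2 summit. The shares over all pooled candidates outside the IDR set were 24.5% and 70.6%. The pooled list comes from the reads of both replicates, so a match with a replicate is not an independent recovery. The file descriptions name no control alignment for the ce11 list of replicate 2, and its part in these values was not tested.

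**Figure D3:**
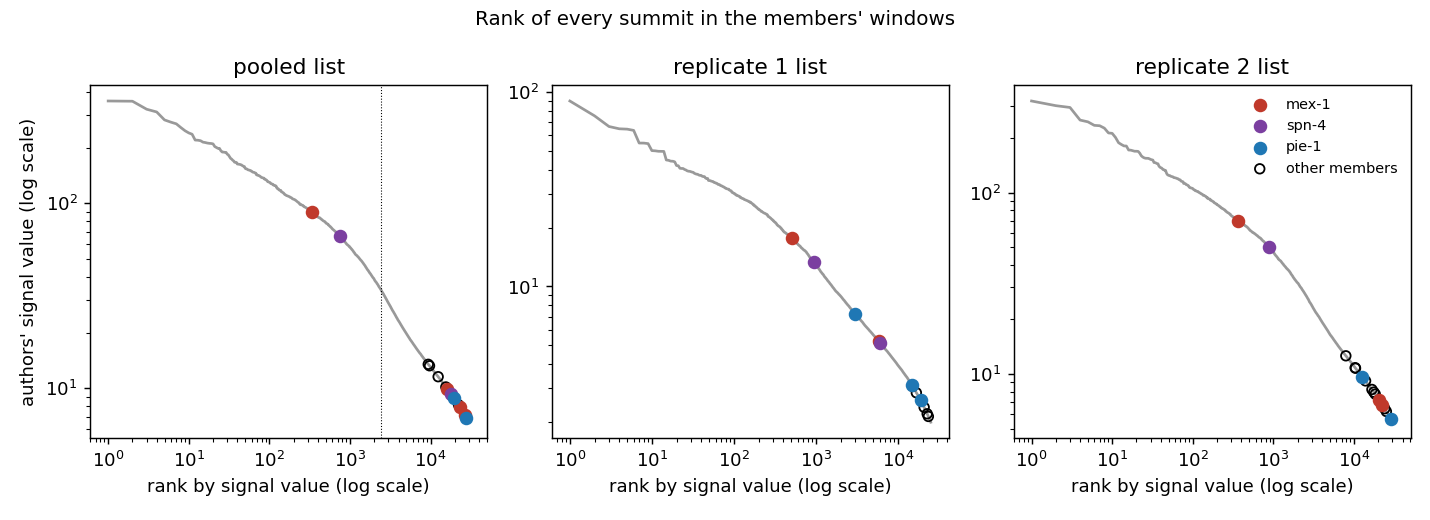
The authors' signal value against rank, both on log scales, for the pooled list and the list of each replicate (grey lines), with every summit in a member window marked. The highest points of mex-1 and spn-4 stand apart from the others in each panel, the dotted line in the pooled panel marks rank 2404, and the replicate 1 candidate of pie-1 at rank 3041 is the next highest in its panel.

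A protein-coding neighbour on the opposite strand started within 2000 bp upstream of 4 members, namely W03C9.5 at mex-1, spe-39 at spn-4, rec-8 at mex-5 and vha-18 at pos-1, and 2 of these 4 had an IDR summit in their window. None of the other 5 members had one. Over all protein-coding genes the same window held an IDR summit in 30.6% of those with such a neighbour and in 10.5% of those without. By definition the window of a gene with such a neighbour also covers the neighbour's 5′ end. The shares therefore do not show a preference for divergent genes. The member counts are too small to be read as a difference, and the split was chosen after the values were seen. The gap was 529 bp at mex-5 and 603 bp at pos-1, close to the 547 bp at spn-4, so a short divergent gap was present with and without a peak.

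Other genes that work with these proteins were taken from 5 lists, with 55 genes in all, every one of them annotated. A promoter summit of the IDR set was present at 15 of them (27.3%), against 2 of the 9 members and 11.4% of all protein-coding genes. Anywhere in the gene window, 21 of the 55 had one (38.2%), against 16.1% of all genes. The lists were chosen with earlier results of these data known, so these shares cannot be read as an enrichment. In 8 of the 15 the gene itself had the nearest 5′ end among annotated genes of all types, noncoding ones included. A count against protein-coding genes alone was not made for these lists. Of the polarity genes and zygotic kinases, 6 of 15 had one. At par-2, whose protein marks the posterior cortex, the signal value was 211.6 at -639 bp, but the summit is 13 bp from rab-18. At par-5, a 14-3-3 gene, it was 77.3, nearer to M117.3, at pkc-3, the atypical protein kinase C gene, 50.5, nearer to F09E5.22, and at cdc-42 48.5, nearer to R07G3.14. The polo kinase gene plk-1 had 41.8, nearer to C14B9.15, and lgl-1 had 37.4 at -178 bp with itself as the nearest. Thus 5 of these 6 summits were nearer to another gene.

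Genes for turnover of CCCH proteins, among them the substrate adaptor zif-1 and its cullin ligase, had a promoter peak in 3 of 5 cases, and in each the gene was the nearest. The signal value was 73.1 at elb-1, the elongin B gene, 49.4 at cul-2 and 46.4 at rbx-1. Of the maternal mRNA targets and partners, 2 of 16 had one, a share near the 11.4% of all protein-coding genes. They were taf-4, a TFIID subunit gene whose protein OMA-1 holds in the cytoplasm (81.8, nearest to taf-4), and gld-3, a germline RNA-binding gene (60.1, nearer to T07F8.4). Of the genes of egg activation and the oocyte-to-embryo transition, 4 of 14 had one. These were egg-5, a pseudophosphatase gene (158.3, nearer to sls-2.4), cgh-1, a DEAD-box helicase gene (138.4), sel-10, an F-box gene (61.1), and car-1, a gene for an RNA-binding protein of P granules (46.4). None of the 7 other CCCH zinc-finger genes had an IDR summit in the promoter or elsewhere in the window. With 11.4% of all genes having one in the promoter and 16.1% in the window, a count of 0 among 7 does not set this list apart.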

How the data were processed

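The files are narrowPeak lists that the authors deposited on ce11, which is WBcel235: candidate regions for each replicate and for the pooled reads, holding peaks and background, and the optimal IDR set. Per the labels, library sizes ranged from 150 to 350 bp. The deposited signal value (column 7) is the authors' strength of a region, and column 9 is the deposited −log10 of a q-value. No label or header names the aligner, the peak caller or the IDR cutoff, and read depth is unknown, so no interval is given. Of the 87620 regions in the lists used, 87596 lay inside the nuclear chromosomes of ce11, and the other 24 were mitochondrial and kept only in the ranks. Of the authors' files, the ce10 lists were not used, because no coordinate was converted.

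Summits were placed on Ensembl release 115 genes with Python 3.11.15, numpy 2.4.6 and pandas 2.3.3, and ranked by signal value within each list. The nearest 5′ end was sought among all annotated genes, counting only the outermost 5′ end of each gene, trans-splicing and operons aside. Replicate summits within 100 bp were taken as matched. The steps were tested on simulated data. The text names all members, the nearest genes, the rank neighbours and each list gene with a promoter peak. Members and lists were chosen with earlier results of these data known. Alternatives were other windows, thresholds, overlap rules and each replicate alone.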

Additional observations from a re-analysis of the deposited data

How the results depend on the processing

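Of 34 alternative settings, 27 left the value within 1.5 times of that reported or within 1 SD of the replicates. With the window cut to 500 bp upstream, or the promoter to 500 bp upstream and 100 bp downstream, 1 member in place of 2 had an IDR summit, spn-4. Counting a summit for its nearest gene only gave 0 in both windows. Any overlap of a region with the gene window gave 3 members, oma-2 being added. The 2404 strongest regions of replicate 2 alone and of replicate 1 alone each gave 2 members in both windows, and 3 and 2 members with a summit within 1000 bp past the 3′ end. With a head-to-head neighbour within 1000 bp, a setting added after the data were seen, 1 member had a peak, since the gap at mex-1 is 1092 bp. In the list of replicate 1, the rank was at 2.02% of the list for mex-1 and 3.74% for spn-4, against 1.12% and 2.47% in the pooled list. Leaving out a replicate gave 7 members with a candidate, against 6. With 9 genes and 2 replicates, and read depth unknown, the absence of a listed region does not show that the protein is absent.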
